A study of Mus musculus with 12 samples.

Results

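The genes described here are 49 mouse genes of meiosis and of the piRNA pathway, chosen by name with earlier results of these data known, and all 49 were found among the 21519 protein-coding genes used from the RefSeq annotation of GRCm38 (mm10). Their bodies were intersected with 28210 deposited domains of H4K20me3, trimethylation of histone H4 at lysine 20, a mark of heterochromatin. The domains came from ChIP-seq of embryonic stem cells of the line dTKO, which the labels give as Suv39h1fl/fl, Suv39h2-/- and Setdb1fl/fl, so every library shares that genotype of H3K9 methyltransferase genes. Libraries were labelled 0, 12, 24 or 48 h after auxin (100 μg/ml) and dTAG13 (0.5 μM), which act on degron-tagged proteins, with 3 replicates at each of 4 times. Cells were grown in serum with LIF. The deposited list holds domain positions and names neither sample nor signal. Decay over time, library depth and replicate error were therefore not analysed here, and the values below are a description of 1 list, with no test. Without values of expression, the labelled cell type could not be checked against its markers.

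Meiosis pairs homologous chromosomes along the synaptonemal complex, holds sister chromatids with dedicated cohesins, and makes and repairs programmed DNA breaks. The piRNA pathway loads small RNAs onto PIWI proteins, which act with Tudor domain proteins and helicases to silence transposons in the male germ line. In embryonic stem cells most of these genes are kept silent, and many have promoters rich in CpG that are known targets of DNA methylation and of repressor complexes that recognise E-box and E2F-type sites.

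H4K20me3 domains, 0.9 to 3.45 kb wide, lay directly over the transcription start sites of 6 genes of this set. The 6 were Dazl, an RNA-binding regulator of germ cell fate, Ddx4, the Vasa helicase, Sycp2, an axial component of the synaptonemal complex, Mov10l1, the helicase of piRNA biogenesis, Fkbp6, a cochaperone of the piRNA pathway, and Brdt, the bromodomain protein of male germ cells. A start site was known for 43 of the 49 genes, so the share was 14% (95% Clopper-Pearson interval 5.3 to 27.9%, counting error only), against 1.31% of the 17273 protein-coding genes with a known start. Since the set was chosen with such results in view, this share is a description of the set. The 250 bases before each of these start sites, from the RefSeq promoter table of GRCm38.p6, lay wholly inside the domain. They are printed 5′ to 3′ on the strand of the gene because this position lay inside the domain in all 6 genes. The sequences themselves differ. The E-box CACGTG and the E2F-type motif TCCCGC (or its reverse complement GCGGGA) are in capitals.
Dazl: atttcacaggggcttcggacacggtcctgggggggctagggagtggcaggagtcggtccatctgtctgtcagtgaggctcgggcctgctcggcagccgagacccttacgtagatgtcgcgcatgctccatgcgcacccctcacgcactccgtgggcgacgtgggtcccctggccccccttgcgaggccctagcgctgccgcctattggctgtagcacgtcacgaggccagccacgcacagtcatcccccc
Ddx4: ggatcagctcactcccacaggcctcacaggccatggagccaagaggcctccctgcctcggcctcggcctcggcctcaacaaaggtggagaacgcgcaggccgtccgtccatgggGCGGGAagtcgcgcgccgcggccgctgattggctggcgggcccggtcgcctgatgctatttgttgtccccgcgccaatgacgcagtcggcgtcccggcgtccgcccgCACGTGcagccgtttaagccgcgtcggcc
Sycp2: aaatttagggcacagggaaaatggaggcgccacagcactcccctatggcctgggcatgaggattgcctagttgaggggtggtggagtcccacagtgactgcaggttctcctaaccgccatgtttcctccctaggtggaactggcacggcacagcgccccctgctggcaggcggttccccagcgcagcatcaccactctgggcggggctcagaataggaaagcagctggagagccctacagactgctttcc
Mov10l1: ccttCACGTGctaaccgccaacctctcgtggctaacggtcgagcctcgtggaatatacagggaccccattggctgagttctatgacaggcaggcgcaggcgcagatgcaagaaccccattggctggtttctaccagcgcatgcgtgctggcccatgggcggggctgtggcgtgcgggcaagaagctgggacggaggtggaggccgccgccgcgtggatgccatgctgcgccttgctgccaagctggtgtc
Fkbp6: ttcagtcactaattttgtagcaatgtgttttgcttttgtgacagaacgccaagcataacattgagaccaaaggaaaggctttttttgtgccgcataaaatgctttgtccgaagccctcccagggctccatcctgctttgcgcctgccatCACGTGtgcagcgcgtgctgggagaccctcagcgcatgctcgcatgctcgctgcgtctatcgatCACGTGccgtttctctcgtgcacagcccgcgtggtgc
Brdt: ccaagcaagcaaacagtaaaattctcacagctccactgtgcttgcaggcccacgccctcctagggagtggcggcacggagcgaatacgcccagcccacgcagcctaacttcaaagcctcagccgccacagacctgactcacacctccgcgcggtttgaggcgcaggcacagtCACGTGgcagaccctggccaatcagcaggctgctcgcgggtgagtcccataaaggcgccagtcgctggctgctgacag
These stretches lie at chr17:50293621-50293870 (Dazl, minus strand), chr13:112652311-112652560 (Ddx4, minus), chr2:178407659-178407908 (Sycp2, minus), chr15:88982744-88982993 (Mov10l1, plus), chr5:135350045-135350294 (Fkbp6, minus) and chr5:107330944-107331193 (Brdt, plus).

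The narrowest of the start-site domains was that of Dazl (chromosome 17, 50279393 to 50293620), which was 0.9 kb wide and reached from 330 bases before to 569 bases after the start. The domain of Sycp2 (chromosome 2, 178345295 to 178407776) was 1.2 kb wide, from 392 bases before to 807 after the start. Ddx4 (chromosome 13, 112598333 to 112652633) had a domain of 1.35 kb, from 540 bases before to 809 after its start. Each of these 3 domains reached further after the start than before it, and each was the only domain over its gene. Of the 28210 listed domains, 28209 lay on a grid of 150 bases, so distances to domain edges are no finer than that step. Mov10l1 (chromosome 15, 88982891 to 89055152) had 1.8 kb over its start, from 1043 bases before to 756 after, and that domain also overlapped the neighbouring gene Mlc1. Brdt (chromosome 5, 107331116 to 107387061) had 2.7 kb, from 1093 bases before to 1606 after. Fkbp6 (chromosome 5, 135291704 to 135351809) had the widest, 3.45 kb, from 2156 bases before to 1293 after its first start, which also overlapped its neighbour Trim50. Henmt1, which encodes the methyltransferase that modifies piRNA ends (chromosome 3, 108939454 to 108979885), had a domain of 4.95 kb that stopped 657 bases before its start. That start lay inside the annotated body, and the domain covered the first 0.447 kb of the body. With Henmt1, 7 of 43 genes (16.3%, interval 6.81 to 30.7%) had a domain within 1 kb of the start, against 2.62% of all protein-coding genes with a known start.

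**Figure D1:**
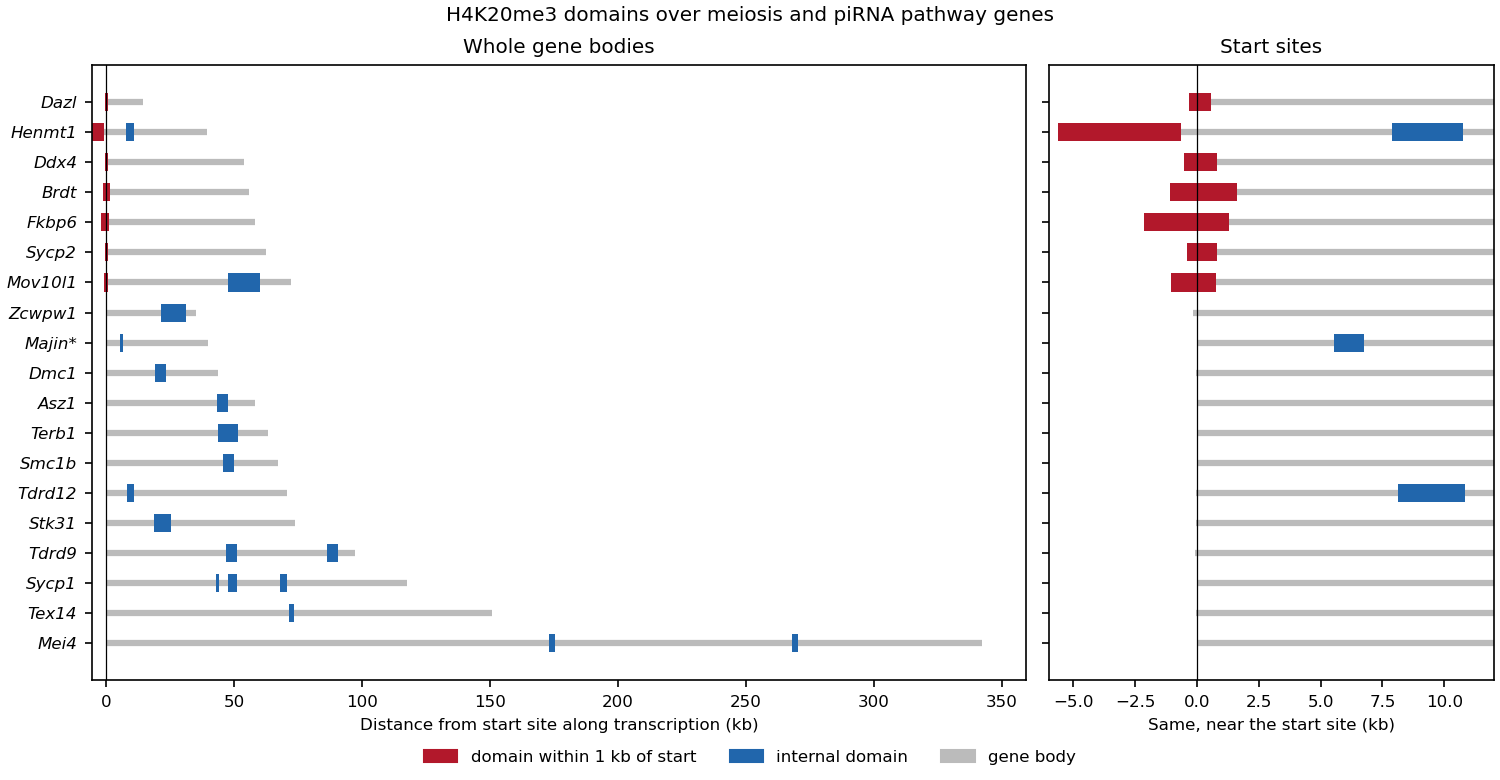
Bodies of the 19 genes that overlapped a domain (grey), drawn in the direction of transcription with the first start site at 0 kb on the x axis, with domains within 1 kb of a start in red and internal domains in blue; the right panel enlarges the start sites. The strand of Majin (asterisk) was not known, and its body is drawn from the lower coordinate. Red domains straddle the start in 6 genes. In Henmt1 the red domain ends before the start and overlaps the body by 0.447 kb.

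Around the start sites, the genes of meiosis and the piRNA pathway and the other protein-coding genes had different shares in domains. At the first start site and up to 500 bases after it, 14% of the 43 genes lay in a domain, while the other 17230 genes were at 1.24% at the start itself. From 1.75 to 5 kb after the start, none of the 43 genes lay in a domain at the points sampled every 250 bases, where other genes were at 1.11 to 1.79%, or under 1 gene in 43. Between 5 and 20 kb from the start on either side, 0 to 4.65% of the 43 genes lay in a domain, against 1.79 to 4.61% of the others. Away from the start the 2 ranges thus overlapped.

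**Figure D2:**
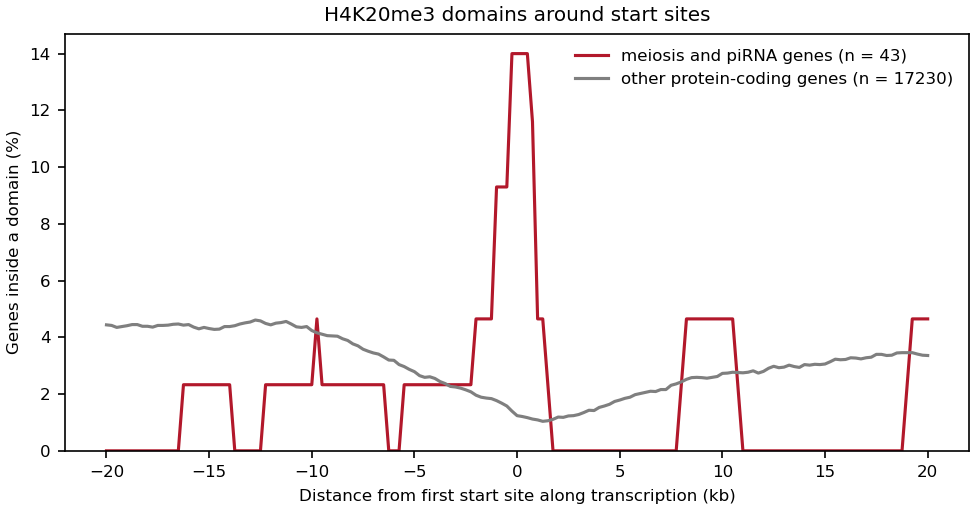
Share of genes (y axis, %) that lie in a domain at each distance from the first start site (x axis, kb along transcription, steps of 250 bases), for 43 meiosis and piRNA genes (red) and 17230 other protein-coding genes (grey). The red line reaches 14% at the start, where the grey line is at 1.24%; each gene adds 2.33% to the red line.

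The start-site domains of these genes were also narrower than most others, and their promoters were richer in CpG. Their widths were 0.9 to 3.45 kb with a median of 1.58 kb, against a median of 6.45 kb (quartiles 2.36 and 11.4 kb) for the 216 domains over starts of other protein-coding genes. Only 1 of the 6, that of Fkbp6, reached the median of 3 kb of the whole list. Domains of at most 3.45 kb were not particular to the set. Of the 220 other protein-coding genes with the start inside a domain, 76 (34.5%) had one of that width. The observed-to-expected CpG ratio of the 300 bases around the start (250 before and 50 after) ranged from 0.363 in Sycp2 to 0.978 in Ddx4, with Mov10l1 at 0.674, Brdt at 0.738, Dazl at 0.795 and Fkbp6 at 0.926. Their median was 0.767, against 0.704 for the 37 genes of the set without a domain over the start. For other protein-coding genes with a domain over the start the median was 0.349. All but Sycp2 thus lay above the median of all promoters, 0.586. Among promoters at or above that value, 5 of 30 genes of the set (16.7%) had the start inside a domain, against 62 of 8607 other genes (0.72%).

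The 2 short motifs were common in the promoters of the set as a whole. The E-box CACGTG, the site of basic helix-loop-helix factors such as MAX and its partner MGA, occurred within the 300 bases in 15 of 43 genes (34.9%), against 1368 of 17230 other protein-coding genes (7.94%). It was present in 4 of the 6 genes with a domain over the start and in 11 of the 37 without one (29.7%). In Ddx4 it began 29 bases before the start, in Brdt 78 bases before and in Mov10l1 246 bases before, and Fkbp6 had 2 copies, at 101 and 37 bases before the start. Sycp3, Hormad1, Sycp1, Tdrd9, Stk31, Piwil1, Mael, Tdrd1, Slc25a31, Stag3 and Ddx25 held the same letters with no domain over the start. Among the 220 other protein-coding genes with a domain over the start, 7 (3.18%) held it. The E2F-type motif TCCCGC, counted on both strands and overlapping an E-box in 0 of the 43 genes, occurred in 20 of 43 genes (46.5%), against 26% of other genes. Of the 6 genes with a domain over the start, 1 held it, namely Ddx4, against 19 of the 37 others (51.4%). Among the 220 other protein-coding genes with a domain over the start, 29 (13.2%) held it. Both motifs contain a CpG, and median CpG ratios differed between the groups compared. They were 0.713 for the set, 0.585 for other protein-coding genes and 0.349 for those 220 with a domain over the start. The motif shares were not matched for CpG. No test was made of these shares, and a match is a description of letters, not of binding.

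Counting any shared base of the gene body, 19 of the 49 genes (38.8%, interval 25.2 to 53.8%) overlapped a domain, against 14.1% of all protein-coding genes. Long genes met more domains than short ones, and the set was long, with a median body of 40.4 kb against 17.3 kb for other protein-coding genes. Other genes given the length make-up of the set, by averaging their share over 20 length classes, overlapped in 17.5% of cases, which corresponds to 8.57 of 49 genes. In the longest of 4 length classes (above 45.1 kb), 14 of 22 genes of the set (63.6%) overlapped, against 36.9% of others. In the next class (17.4 to 45.1 kb) the shares were 4 of 15 (26.7%) and 11.5%. Below 17.4 kb only Dazl, 1 of the 12 genes there, met a domain, and the shares of others in the 2 shorter classes were 3.14 and 4.8%. For the start site, the same averaging over length gave other genes 1.26%, close to the 1.28% without it. In all, 3.39% of the summed body length of the set lay in domains, against 1.89% for other protein-coding genes. A covered share of 50% or more was reached by 0 genes of the set and by 159 of 21470 other protein-coding genes.

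**Figure D3:**
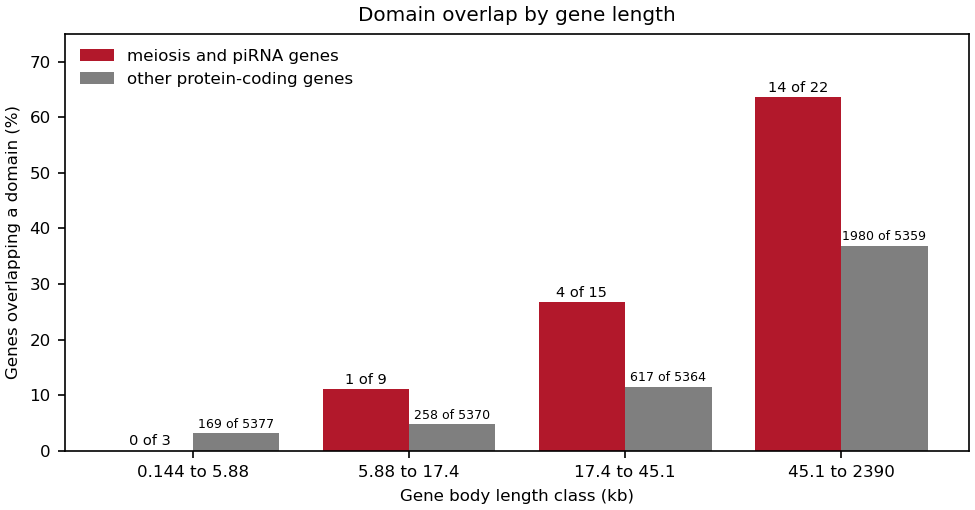
Share of genes that overlap a domain by at least 1 base (y axis, %) in 4 classes of gene body length (x axis, kb), for the meiosis and piRNA genes (red) and other protein-coding genes (grey), with counts above the bars. In the longest class 14 of 22 genes of the set overlap, against 36.9% of the others.

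More domains of the set were internal than on the start side, though less so than for other genes. Among genes with a known start that overlapped a domain, 38.9% of the set had one within 1 kb of the start, against 13.3% of other protein-coding genes. Of 25 domains over or within 1 kb of these genes, 18 were internal, in 14 genes, and Mov10l1 and Henmt1 had both an internal and a start-side domain. Internal domains were 1.05 to 12.3 kb wide with a median of 3.75 kb, against 2.7 kb for the 3908 domains over other genes that had body overlap only. With the strand known for 17 of the 18, their centres lay at 13.5 to 91% of the way from start to end, with a median of 50.9%, the same median as the 3877 internal domains of other genes. Of the genes with a known start, 11 of 43 (25.6%) had body overlap with no domain within 1 kb of the start, against 12.1% of all such protein-coding genes and 14.9% after averaging over length. Whether a domain covers an exon or an intron was not analysed here, for want of exon positions.

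Among genes of the synaptonemal complex, Sycp1, the transverse filament, had the most domains of any gene in the set. Its 3 internal domains covered 7.2 kb, or 6.12% of its 118 kb body, the first of which lay 43 kb and the last 67.9 kb after the start. Sycp2 had its start-site domain only. Sycp3, the partner of Sycp2 on the axis, and Syce1 and Syce2, central element proteins, had none, and their nearest domains lay 142, 46.2 and 142 kb from the start. The 3 meiotic cohesin genes differed likewise, since the SMC subunit Smc1b (chromosome 15, 85064689 to 85131957) had 1 domain of 4.35 kb, which also overlapped Fam118a, while the kleisin Rec8 and the subunit Stag3 had none. The axis genes Hormad1 and Hormad2 had none, with the nearest 131 and 94.7 kb from their bodies.

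In the recombination group 3 of 10 genes overlapped a domain (interval 6.67 to 65.2%), all internally, against 14.1% of all protein-coding genes. That share is not matched for length, and the median body of the group was 39.6 kb. Other protein-coding genes overlapped in 11.5% of cases from 17.4 to 45.1 kb and in 36.9% above. The interval holds all 3 shares, and with 10 genes it is too wide to tell them apart. Zcwpw1, a reader of the histone marks set by Prdm9 (chromosome 5, 137787157 to 137822621), had the largest covered share of all 49, 27.5% of its body, in 1 domain of 9.75 kb that ended 3.97 kb before the 3′ end of the gene. Dmc1, the meiotic strand-exchange recombinase, had 4.5 kb in the middle of its body (10.3%). Mei4, needed for break formation, had domains of 2.1 and 2.55 kb in a body of 342 kb (1.36%). Prdm9 itself, the methyltransferase that places hotspots, had none, although a domain lay 3.82 kb beyond its 3′ end. Spo11, the break-forming transesterase, Mei1, Msh4, Msh5, Hfm1 and Meiob had none. Both genes for attachment of telomeres to the nuclear envelope had 1 internal domain each, of 7.65 kb in Terb1 (12.1% of its body) and of 1.2 kb in Majin (3.01%). With only 2 genes the interval is 15.8 to 100%, against 14.1% of all protein-coding genes. Terb1 was 63.2 kb long, in the length class where 36.9% of others overlapped. Majin was 39.9 kb long, in the class with 11.5%.

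Of 16 genes of the piRNA pathway, 7 overlapped a domain (interval 19.8 to 70.1%), against 14.1% of all protein-coding genes. These 16 were long, with a median body of 59.1 kb. Among other protein-coding genes above 45.1 kb, 36.9% overlapped, a share inside that interval. Of the 13 piRNA pathway genes with a known start, 3 had a domain within 1 kb of it (interval 5.04 to 53.8%), against 2.62%. Mov10l1 had the second largest covered share of the set, 18.2%, because a domain of 12.3 kb, the widest over any gene of the set, lay 47.7 kb after its start in addition to the one over the start. Henmt1 had an internal domain of 2.85 kb beside the one near its start. Asz1, a mitochondrial scaffold of piRNA processing, had 4.35 kb inside (7.49%). Among the Tudor domain genes, Tdrd9 had 2 domains covering 8.94% of its body, Stk31 had 6.45 kb (8.72%) and Tdrd12 had 2.7 kb (3.81%), whereas Tdrd1, Tdrd5, Tdrkh and Rnf17 had none. None of the 3 genes for PIWI proteins overlapped a domain. The nearest lay 6.22 kb from Piwil1, 177 kb from Piwil2 and 310 kb from Piwil4. Mael and Tex15 had none either. Of the remaining germ cell genes, Tex14, of intercellular bridges, had 1.65 kb in 151 kb (1.09%), and Stra8 and Meioc, regulators of meiotic entry and progression, had none.

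The 30 genes without a domain were not close to one in most cases. Their bodies lay 3.82 to 487 kb from the nearest domain, with a median of 90.7 kb. The distance was at most 10 kb in 4 of them (Prdm9, Piwil1, Stag3 and Hfm1), 10 to 100 kb in 12, and more in 14. These body distances are not given for other protein-coding genes without a domain, so they have no comparison. Tex19.1, Tex19.2, Slc25a31, Tex101 and Ddx25, germ cell genes with bodies of 2.17 to 17.2 kb, were among the 30. Over the 43 known starts, the median distance to a domain was 46.2 kb, against 53 kb for other protein-coding genes. The medians were thus close, while the share of starts at distance 0 was 14% against 1.28%.

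**Figure D4:**
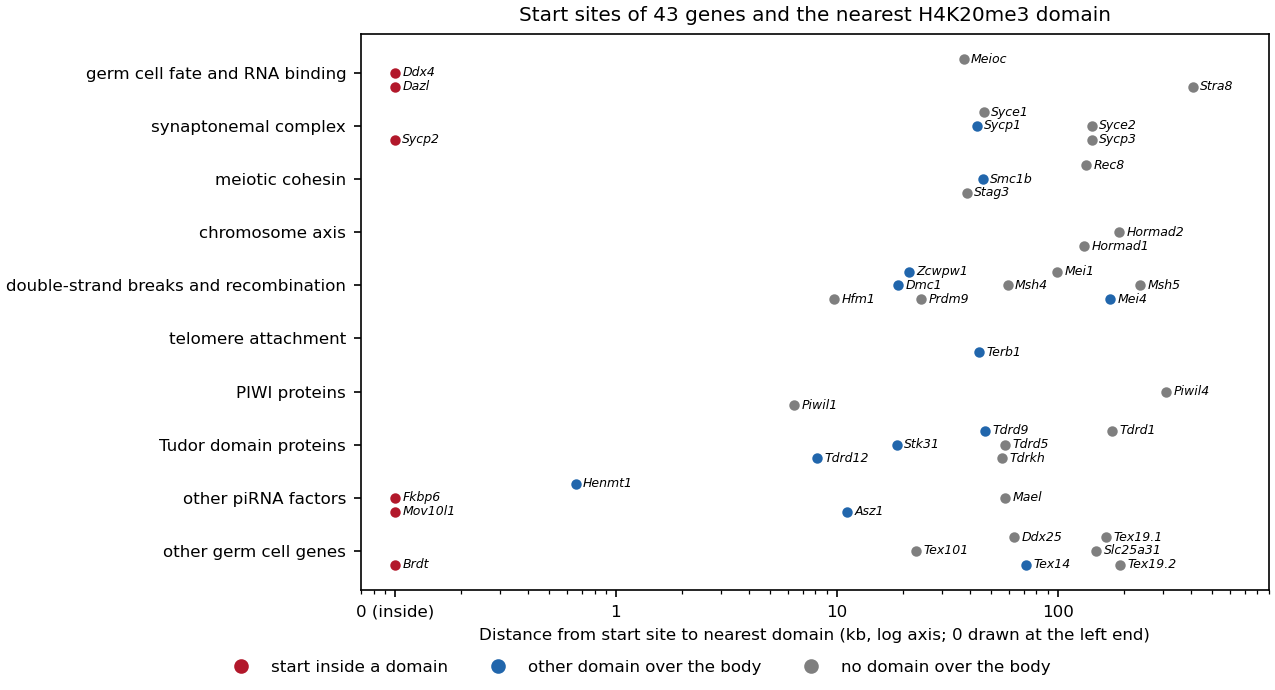
Distance from the start site to the nearest domain (x axis, kb, log axis, with 0 drawn at its left end) for the 43 genes with a known start, in rows by role. The 6 red genes have the start inside a domain, Henmt1 follows at 0.657 kb, and the next is Piwil1 at 6.4 kb.

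Related lists were counted in the same way, but without averaging over length. Median bodies were 31.2 kb for further meiosis genes, 22.7 kb for further piRNA genes, 45.5 kb for paralogs and 9.06 kb for spermatid genes. The set had 40.4 kb. By length, other protein-coding genes overlapped in 3.14% of cases below 5.88 kb and 4.8% from there to 17.4 kb. The shares were 11.5% up to 45.1 kb and 36.9% above. Of 34 further meiosis genes 6 overlapped a domain (17.6%), led by Hsf2bp (8.32% covered), Meikin (7.48%), Ankrd31 (6.41%) and Tex11 (2.38%). Among the 27 of them with a known start, only Sgo2a, a protector of centromeric cohesion, had the start inside a domain, of 0.75 kb. Of 14 further piRNA pathway genes 1 overlapped, Morc1 (4.51%), and of 8 with a known start none was covered there. Paralogs of the set with roles outside the germ line in most cases, such as Smc1a and the Argonaute genes, overlapped in 6 of 27 cases (22.2%), led by Zcwpw2 (9.49%), Brd3 (8.21%) and Ago3 (5.88%), and in none of 21 cases at the start. Genes of postmeiotic spermatids overlapped in 7 of 38 cases (18.4%), led by Akap4 (18.9%), Catsper4 (16.5%), Sun5 (12.8%) and Spaca1 (8.93%), and in none of 32 cases at the start, although 2 of the 32 (6.25%) had a domain within 1 kb of it. The Clopper-Pearson intervals of these start-site shares reach 19, 36.9, 16.1 and 10.9%, so they overlap that of the 43 genes, and no test of the difference was run.

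**Figure D5:**
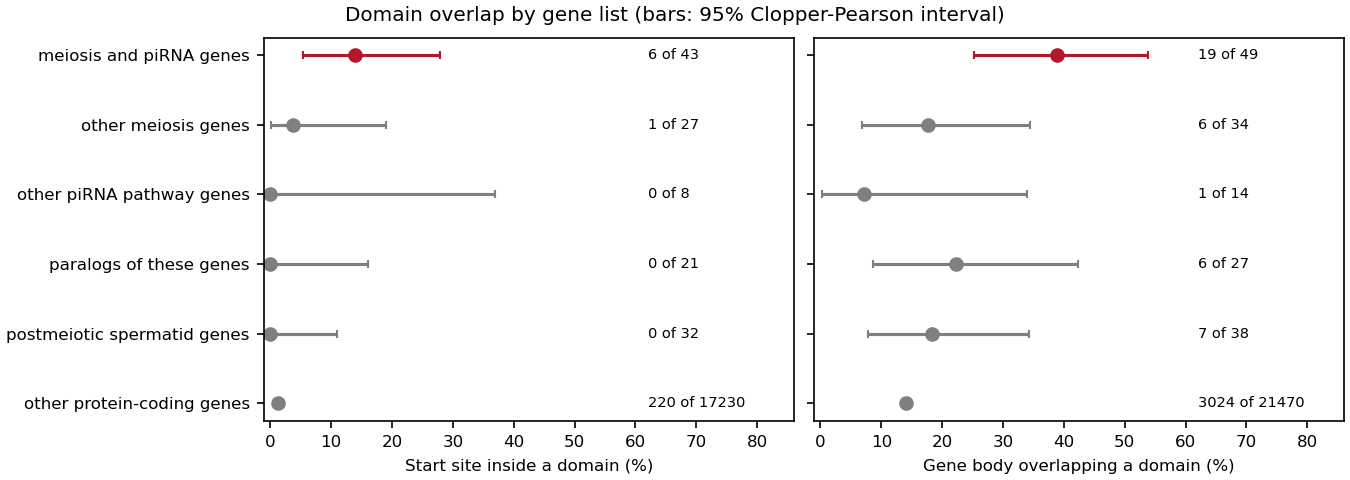
Share of genes with the start site inside a domain (left, %) and with a domain over the body (right, %), with 95% Clopper-Pearson intervals for counting error, for the 49 genes (red) and other lists (grey). The set stands at 14% and 38.8%, and the other protein-coding genes at 1.28% and 14.1%. The lists differ in gene length, and no share is averaged over length.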

How the data were processed

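H4K20me3 ChIP-seq was made from 12 libraries (3 replicates at 4 times). Per the labels' protocols, each immunoprecipitation held mouse chromatin (24 μg), a Drosophila spike-in (1.5 μg) and antibody (3 μg). Per the submitters' processing notes, the tools were bedtools, deepTools, SAMtools 1.1 and Bowtie2 2.3.4.1. The authors deposited 1 list of domain positions, called with RSEG per the file name; its threshold and libraries are not stated in those sources. The positions carry no signal, score or sample, so the planned time comparison was not run.

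Domains were intersected with RefSeq gene bodies (GRCm38.p6) on chromosomes 1 to 19 and X, leaving out 340 genes that begin in the first 3 Mb. A gene counted with at least 1 shared base. Strand and start sites came from the RefSeq promoter table for 43 of the 49 genes. It had none for Spo11, Meiob, Majin, Piwil2, Rnf17 and Tex15. A start site from it can lie inside the annotated body, as in Henmt1. It lay further inside in Stag3 (start 138280509, body from 138272514) and Mei1 (start 82082476, body from 82070074). Start distances and promoter motifs of these genes refer to those starts. With several starts the nearest counted, and CpG ratios and motifs used the first. Of the further lists, 2 meiosis and 3 piRNA symbols had no match. Every gene of the set was named, and of other lists up to 4 with the largest covered share. The members and lists were chosen with earlier results of these data known, and the CpG, width and motif summaries after these values were seen. Interval functions were tested on simulated data. Computations were run with scipy 1.17.1, pandas 2.3.3, numpy 2.4.6 and matplotlib 3.10.9 in Python 3.11.15.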

Additional observations from a re-analysis of the deposited data

How the results depend on the processing

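The count of 19 genes with a domain over the body stayed between 19 and 20 when 500 shared bases were required, when bodies were widened by 1 or 5 kb on each side, when domains closer than 5 kb were merged, without domains at the first base of a chromosome, and on autosomes. It was 0 when 50% of the body had to be covered and 11 with only domains at or above the median width of 3 kb. The count of 7 genes with a start-side domain was 6 or 7 for windows of 0 to 5000 bases and with merged domains. It was 2, Fkbp6 and Henmt1, with only domains at or above the median width, since only 1 of the 6 start-site domains reached that width. For start-side domains, the share of other genes under that width limit was not counted, so this 2 has no comparison. The share of other protein-coding genes of like length, 17.5%, was 18.6% with 10 length classes, 17.4% with 50, 17.2% on autosomes, 17.5% with merged domains and 9.87% with only domains at or above the median width. No paired analysis was possible because the list has no column per sample. Within 5000 bases of the start, 16.3% of the 43 genes had a domain, against 7.41% of other genes. With 43 starts, 1 gene is 2.33%, which limits every share given for the set.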

Other observations

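Domains as narrow as those over the 6 germline starts (at most 3.45 kb) at promoters with a CpG ratio of at least 0.586 were found at few start sites. Of 226 genes with the start inside a domain, 29 had both properties, and 5 of these 29 were Dazl, Ddx4, Mov10l1, Fkbp6 and Brdt. The other 24 were of mixed kinds, and those named were chosen after their values were seen, which shows no theme. D1Pas1, an autosomal Ddx3 copy of the testis, had a domain of 1.65 kb and a CpG ratio of 0.707. Tuba3b, a testis alpha-tubulin gene, had 1.05 kb and 0.676. Rpl10l, a ribosomal protein retrogene, had 1.2 kb and 0.643, and Tktl2, a transketolase-like gene, had 0.75 kb and 0.767. Among the 24 were also broadly expressed genes, such as Eef1a1, with a domain of 0.3 kb, Pgk1, with 0.9 kb, Magohb, with 1.2 kb, Mia3, with 1.65 kb, and Dhx36, with 2.25 kb. Taf9b and Map10 were the only 2 of the 24 with a CACGTG in the 300 bases around the start, against 4 of the 5 germline genes. The width limit was the widest start-site domain of the set and the CpG limit the median of all promoters, so the share of the set within them is a description.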
